A study of Homo sapiens with 6 samples.

Results

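The transcriptome of HT-29 cells after knockdown of HOXB-AS3 was compared with that of cells given a non-targeting siRNA, across all genes. HT-29 is an established human colorectal adenocarcinoma cell line that can take on features of enterocytes and of mucus-producing cells. The 2 siHOXB-AS3 libraries and the 2 siNT libraries were chosen by their labels and make up 4 of the 6 samples of the series. The other 2 are siHOXA-AS3 libraries. Cells of the knockdown group were transfected with a pool of siRNAs against HOXB-AS3 and control cells with a non-targeting pool, and both were harvested 48 hours later. The labels give a dose of 10 nM and the study's methods give 25 nM. Polyadenylated RNA was sequenced, and summed expected counts reached 26263938 and 15998518 for siNT and 24761613 and 21837376 for siHOXB-AS3. The labels number the replicates 1 and 2 and do not say whether they came from separate cultures, so p-values measure the spread between these samples, which may be technical.

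HOXB-AS3 is a long noncoding RNA (lncRNA) transcribed from the middle of the HOXB cluster, antisense to HOXB5 and HOXB6. HOX genes encode transcription factors that assign position along the body axis, and their expression persists in the adult colon. The colonic epithelium is renewed from stem cells maintained by Wnt signals and contains absorptive cells, which carry a brush border and move ions and water, and goblet cells, which secrete mucus. An siRNA acts when 1 of its strands, the guide, is loaded into an Argonaute protein and pairs along its whole length with a target RNA, which is then cut. Guides can also lower other mRNAs that pair only with the seed, bases 2 to 8 of the guide, in the manner of a microRNA.

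The duplexes of the HOXB-AS3 pool are shown because they define the treatment and because their seeds are examined against the falling genes. Each line gives 1 strand from 5′ to 3′, each 21 bases long, and capitals mark the seed of the strand complementary to HOXB-AS3.
Duplex A, strand with the HOXB-AS3 sequence: cgacaaagggagacaaaguuu
Duplex A, guide: aCUUUGUCucccuuugucguu
Duplex B, strand with the HOXB-AS3 sequence: gagucgggcaugaaagaaauu
Duplex B, guide: uUUCUUUCaugcccgacucuu
Duplex C, strand with the HOXB-AS3 sequence: gucaaggggugaagggaaauu
Duplex C, guide: uUUCCCUUcaccccuugacuu
In the GENCODE v29 transcripts, the paired part of duplexes A and C matched 2 of 15 HOXB-AS3 transcripts each and that of duplex B matched 8 of 15. No transcript of another gene held a full match to a guide.

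HOXB-AS3 itself was at 27 and 29.3 FPKM (fragments scaled by transcript length and library size) with siNT and at 6.05 and 7.96 FPKM after KD, from expected counts of 303 and 213 against 67 and 76. The knockdown libraries therefore lay far below both controls. This was a 3.89-fold fall (log2 fold change -1.96 ± 0.209 SE, Benjamini-Hochberg adjusted p = 8.79e-07 by the quasi-likelihood test of edgeR). With all 6 libraries in the model, described below, the fall had the same size and an adjusted p of 0.0678. The cluster genes beside it fell too, HOXB5 by 1.01, HOXB6 by 0.85 and HOXB7 by 0.61 on the log2 scale. HOXB7 lost its call without siHOXB-AS3 replicate 2 (log2 fold change -0.47, adjusted p = 0.143). HOXB5 and HOXB6 lie antisense to HOXB-AS3, and the sources used here do not say if reads were counted by strand, so reads of overlapping exons may have been split between them.

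After HOXB-AS3 KD, 1441 of the 12830 genes tested rose and 1554 fell at an adjusted p below 0.05. These are 11.2% and 12.1% of the genes tested, or 23.3% in either direction, and these shares are the background against which each gene list is read. Changes were mostly small. The median size of a called change was 0.549 on the log2 scale, and 143 genes rose and 364 fell at least 2-fold. Large changes thus leaned towards lower expression. Among 11240 protein-coding genes 1351 rose and 1395 fell. Among 797 lncRNAs 38 rose and 80 fell, a smaller share in each direction than among all genes, with the larger shortfall in rises. Of the called genes, 2994 had the siHOXB-AS3 pair wholly above or wholly below the siNT pair, an arrangement seen in 62.1% of all genes tested. With 2 libraries against 2, a permutation test for a single gene cannot go below p = 0.333, so calls rest on the spread shared across genes.

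The number of calls depended on which libraries entered the model. With the siHOXA-AS3 libraries added, whose replicates differed by an SD of 0.726 across genes on the log2 scale against 0.425 for siNT and 0.371 for siHOXB-AS3, 8 of 13034 genes were called. These were CCN2, BMP2, VGLL1 and PLAC8, which rose, and MIR31HG, LITAF, CEACAM5 and CEACAM6, which fell. With this model 1586 genes had an unadjusted p below 0.05, and all but 8 of the calls described from here on are lost in it. The split depended on scaling, with 1073 genes higher and 1800 lower when counts were scaled to library totals. With limma on log2 FPKM, which changes the test as well as the unit, 854 were higher and 1391 lower. Without siHOXB-AS3 replicate 1 the counts were 693 higher and 883 lower, and without replicate 2 they were 449 higher and 682 lower. Values that follow come from the 4 libraries unless stated.

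**Figure D1:**
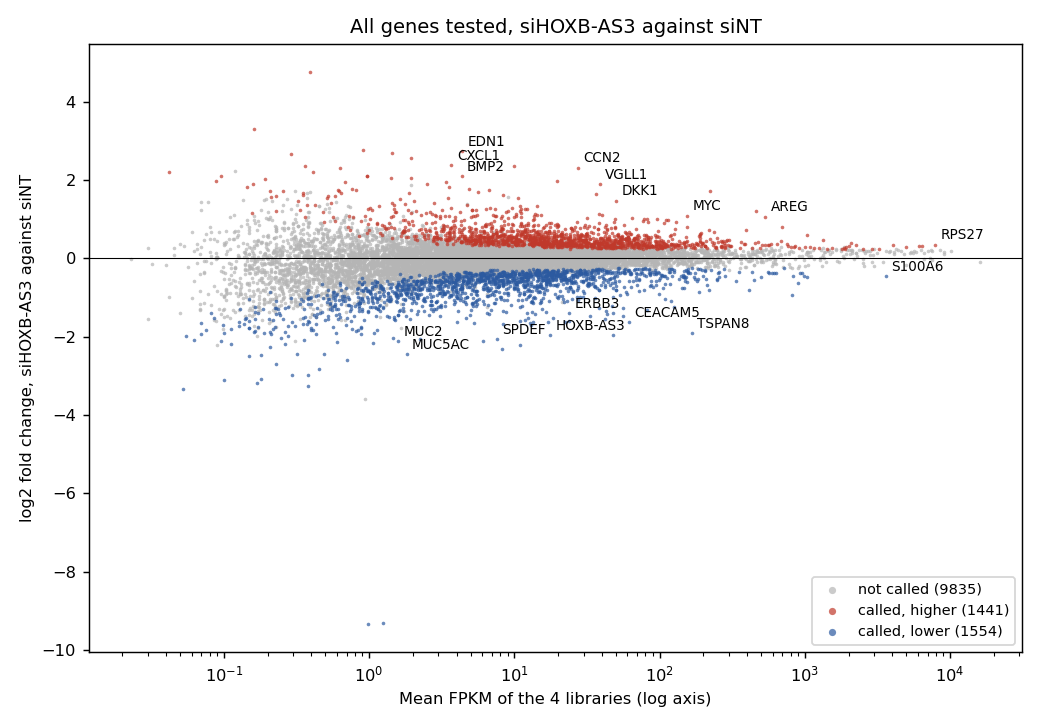
Each point is 1 of the 12830 genes tested, with the mean FPKM of the 4 libraries on a log axis and the log2 fold change, siHOXB-AS3 against siNT, on the other. Red points are the 1441 genes called higher, blue points the 1554 called lower and grey points those not called. The 2 points near the bottom belong to TBC1D3C, which has near-identical copies between which RSEM can shift reads, and to a row without a symbol.

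EDN1, which encodes the vasoconstrictor peptide endothelin 1, headed the 15 genes that rose most. It stood at 1.14 and 1.2 FPKM in controls and at 6.05 and 8.99 FPKM after KD (log2 fold change 2.73 ± 0.228 SE, adjusted p = 3.16e-08 by edgeR). CCN2, which encodes a secreted matricellular protein also called connective tissue growth factor, went from 8.88 and 10.1 FPKM to 38.3 and 52.8 FPKM. Its log2 fold change was 2.31 ± 0.143 SE (adjusted p = 8.1e-10 by edgeR). The related CCN1 went from 7.21 and 9.25 FPKM to 27.9 and 34.5 FPKM, a 3.95-fold rise. In each of these genes the lower KD library exceeded the higher control by a wide margin, and KD replicate 2 was the higher of the pair. BMP2, a bone morphogenetic protein ligand, was at 1.54 and 1.85 FPKM in controls and at 6.98 FPKM in both KD libraries (log2 fold change 2.10 ± 0.17 SE). VGLL1, which encodes a cofactor of TEAD transcription factors, went from 17.3 and 16.3 FPKM to 56.9 and 63.9 FPKM (log2 fold change 1.89 ± 0.125 SE, adjusted p = 2.26e-09 by edgeR).

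Several other leading genes encode secreted or signalling proteins. PI3, which encodes the protease inhibitor elafin, was at 2.99 and 3.72 FPKM in controls and 13.5 and 19.4 FPKM after KD. CXCL1, a chemokine that attracts neutrophils, was at 1.53 and 0.82 FPKM against 4.47 and 7.94 FPKM. Its replicates varied within each group, while the groups stayed apart. BIRC3, which encodes an inhibitor of apoptosis, rose 3.55-fold. Of genes with roles in the cytoskeleton and membrane, MYL9, the regulatory light chain of non-muscle and smooth muscle myosin, went from 0.57 and 0.58 FPKM to 3.23 and 3.43 FPKM, and CAV1, the main protein of caveolae, from 2.34 and 2.22 FPKM to 7.51 and 7.43 FPKM. Both pairs agreed closely between replicates. The remainder of the 15 that rose most were ERP27, SECTM1, MMP24, FGD3 and KLHL5, with rises between 3.38-fold and 6.45-fold. PLAC8, a small cysteine-rich protein gene chosen here because it was 1 of the 8 genes called with all libraries, went from 96.8 and 109 FPKM to 359 and 327 FPKM.

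**Figure D2:**
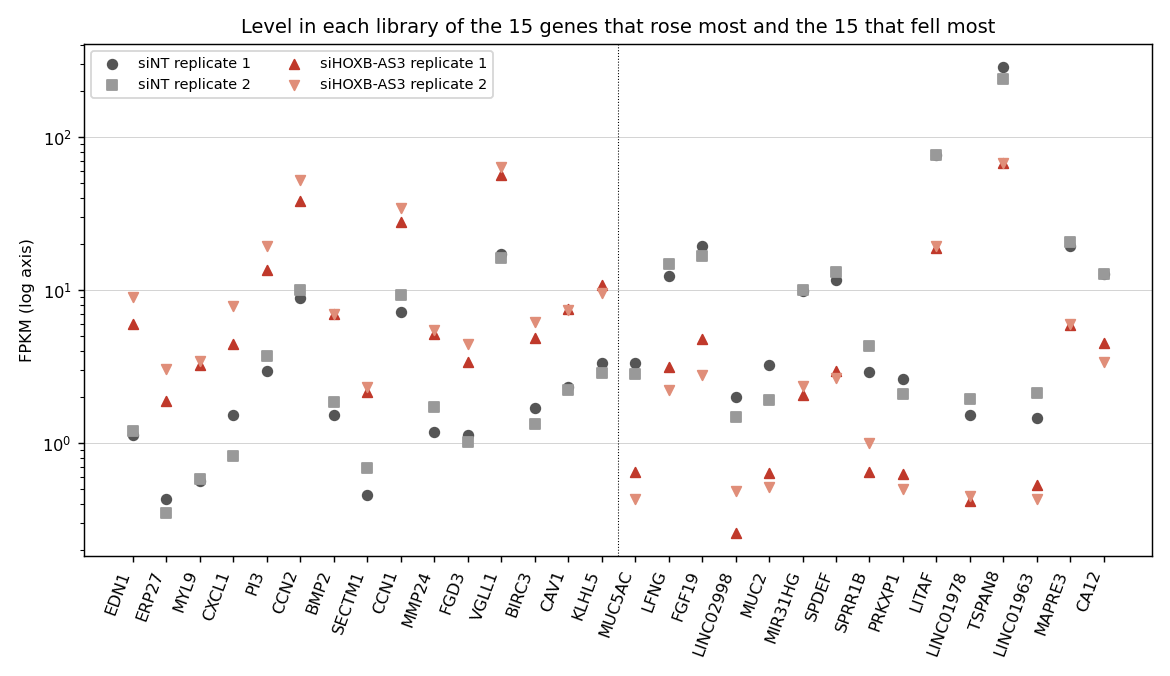
FPKM on a log axis of the 15 genes that rose most (left of the dotted line) and the 15 that fell most (right) by log2 fold change among called genes outside the HOX clusters whose mean level reached 1 FPKM. Grey symbols are the siNT libraries and red symbols the siHOXB-AS3 libraries, and groups do not overlap in any gene shown because the rule required it.

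Genes of mucus-producing cells led the falls. MUC5AC, a gel-forming mucin, was at 3.33 and 2.84 FPKM in the siNT libraries and at 0.65 and 0.43 FPKM after KD (log2 fold change -2.45 ± 0.204 SE, adjusted p = 3.16e-08 by edgeR). MUC2, the main gel-forming mucin of the colon, was at 3.24 and 1.93 FPKM against 0.64 and 0.52 FPKM. SPDEF, a transcription factor of goblet cell maturation, went from 11.6 and 13.1 FPKM to 2.97 and 2.67 FPKM, a 4.19-fold fall. Both mucins were low in HT-29 to begin with, whereas SPDEF was at a moderate level. LFNG, a glycosyltransferase that modifies Notch receptors, went from 12.4 and 14.9 FPKM to 3.17 and 2.23 FPKM, and FGF19, a secreted growth factor of the ileum that lowers bile acid synthesis, from 19.6 and 16.8 FPKM to 4.79 and 2.79 FPKM.

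LITAF and TSPAN8 had the smallest p-values of the falling genes. LITAF, which encodes a protein of late endosomes, was at 76.6 FPKM in both siNT libraries and at 18.9 and 19.6 FPKM after KD (log2 fold change -1.95 ± 0.0995 SE, adjusted p = 1.02e-10 by edgeR). TSPAN8, a tetraspanin of the epithelial cell surface, went from 287 and 241 FPKM to 68.4 and 67.6 FPKM. Replicates differed little in either gene. MIR31HG, the lncRNA host of a microRNA on chromosome 9, went from 9.86 and 10 FPKM to 2.07 and 2.36 FPKM. MAPRE3, which encodes a protein that binds microtubule ends, and CA12, a membrane carbonic anhydrase, fell 3.26-fold and 3.18-fold. LINC02998, another lncRNA among the 15, had expected counts of 24 and 11 with siNT against 3 and 5 after KD. It passed the filter on low counts only through the siNT libraries. A difference was thus fixed by the filter, and the gene stays among the 15 as a description only. Its call was lost when siHOXB-AS3 replicate 1, siHOXB-AS3 replicate 2 or siNT replicate 1 was left out. PRKXP1 is a pseudogene of PRKX, so its 4.06-fold fall is uncertain where reads can be shared with the parent gene.

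By absolute level, the largest rises outside the HOX clusters were in ribosomal protein genes, which were already among the most abundant mRNAs. RPS27 went from 6750 and 7410 FPKM to 8330 and 9100 FPKM, a log2 fold change of 0.35, and lost its call without siHOXB-AS3 replicate 2 (0.27, adjusted p = 0.231). The largest absolute falls were in S100A6, YWHAZ, S100A4, LGALS4 and HMGA1. YWHAZ, which encodes the zeta isoform of the 14-3-3 adaptor proteins, went from 1140 and 1040 FPKM to 553 and 558 FPKM, a 1.90-fold fall.

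Gene lists were described by the number of their tested members called in each direction, beside the 11.2% called higher and 12.1% called lower among all genes, whose median log2 fold change was -0.0043. The lists with the largest share of members called higher were YAP/TEAD (20 of 35), NF-kB targets and chemokines (13 of 24) and small nucleolar RNA (snoRNA) host genes (8 of 15). The 20 include ANKRD1, whose difference was fixed by the filter on low counts, as described below. Those with the largest share called lower were colon ion transport (11 of 15), mucins, trefoil factors and goblet genes (10 of 19), the CEACAM family (3 of 6) and the S100 family (5 of 10).

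**Figure D3:**
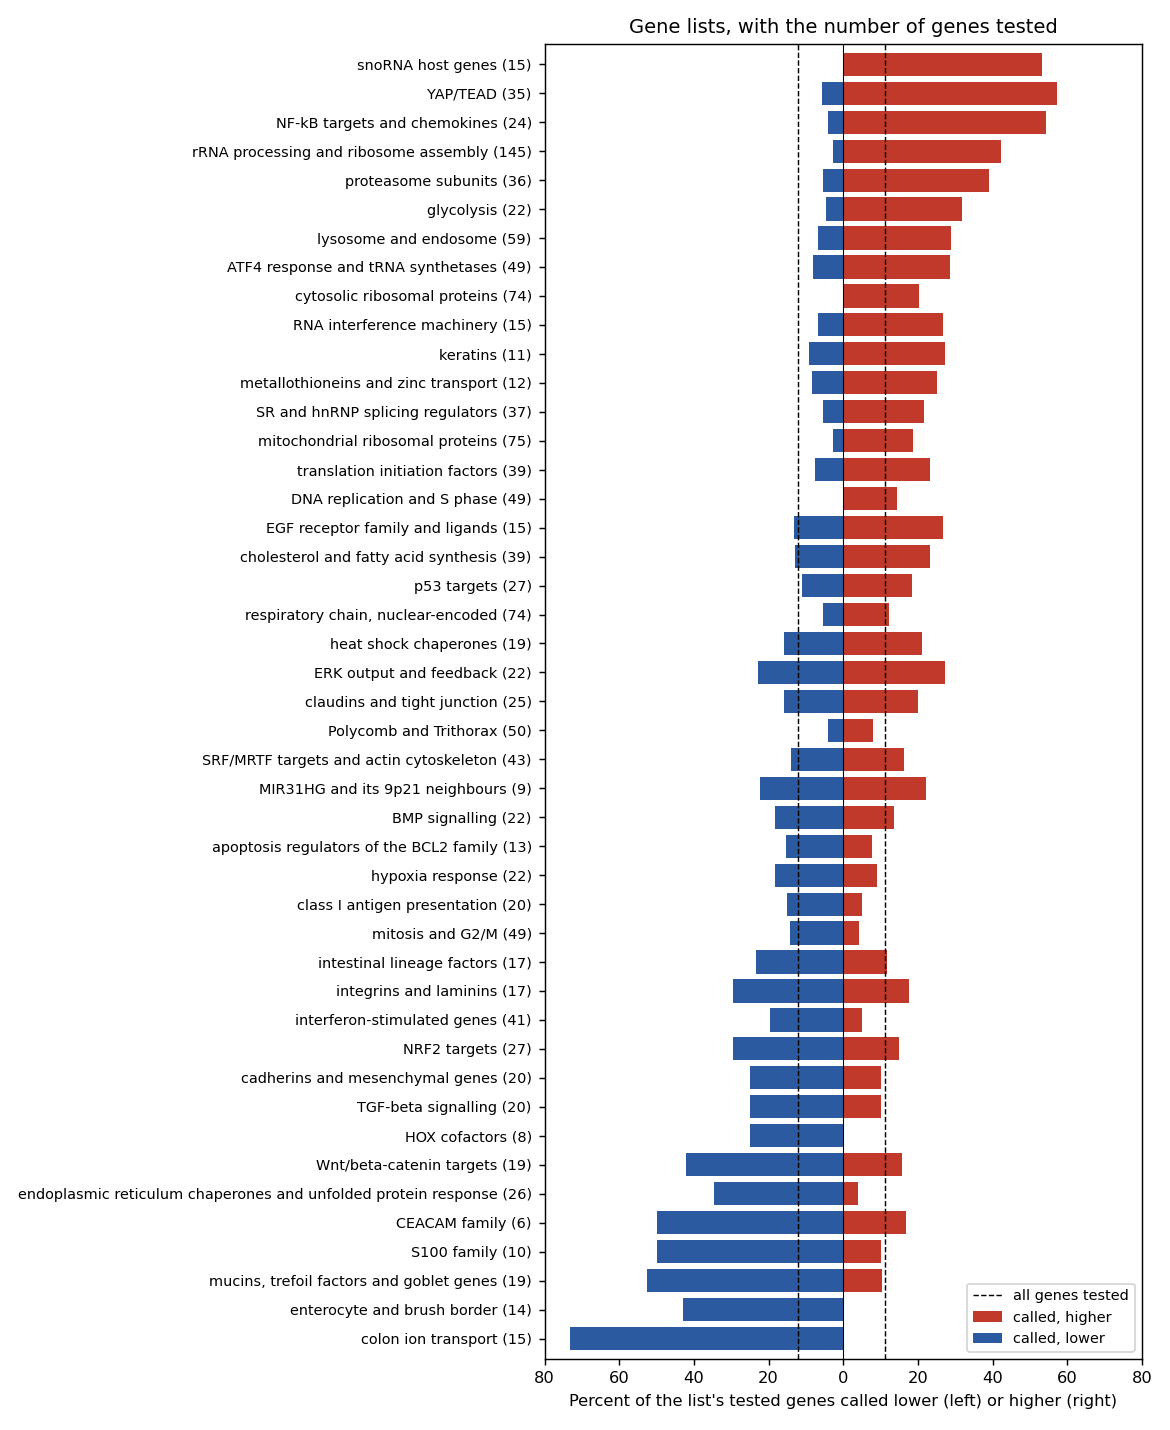
Percent of the tested genes of each list that were called higher (red, to the right) or lower (blue, to the left) in the siHOXB-AS3 libraries, with the number tested in parentheses. Dashed lines mark all genes tested, 11.2% higher and 12.1% lower; colon ion transport reaches 73.3% lower and YAP/TEAD 57.1% higher.

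YAP and its paralog TAZ are coactivators that are held in the cytoplasm by the Hippo kinases and that switch on genes with TEAD factors when they enter the nucleus. Of 21 target genes tested, 13 rose and 1 fell, the list median being 0.65 on the log2 scale, and of 14 pathway regulators 7 rose and 1 fell, with a median of 0.18. Over the whole list the 20 rises became 14 without siHOXB-AS3 replicate 1 and 15 without replicate 2, where 5.29% and 3.39% of all genes were called higher. Beside CCN1, CCN2 and VGLL1, ANKRD1, which encodes a nuclear ankyrin repeat protein, had 1 count in each siNT library against 33 and 32 after KD, a ratio of 29.5 per total count (95% interval 7.84 to 249, exact, counting error only). Its level was below 1 FPKM in all libraries, and it passed the filter on low counts only through the KD libraries. A difference was thus fixed by the filter and is given as a description. ANKRD1 is nevertheless counted in the 13 rises among targets and in the 20 of the whole list. Negative regulators of the pathway were among the risers, with the kinases LATS2 (log2 fold change 1.11) and STK3 (0.80), the scaffold SAV1 (0.70), PTPN14 (1.20) and AMOTL2 (1.05). LATS2 and PTPN14 were listed among the 21 targets and not among the 14 regulators. YAP1, which encodes YAP itself, rose by less, from 36.7 and 33.8 FPKM to 46.9 and 46.3 FPKM. NT5E, which encodes the ectoenzyme CD73, fell from 31.4 and 32.4 FPKM to 15.3 and 13.7 FPKM, and TEAD2, 1 of the TEAD factors, fell 1.99-fold.

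Short promoter windows of target genes are shown because many of these genes were called higher and TEAD factors bind a known core motif. The windows are RefSeq sequence of GRCh38.p14 on the strand of the gene, taken from 250 bases before to 50 after each gene's start, and capitals mark GGAATG or its reverse complement, which was searched on both strands.
CCN2, chr6:131951524-131951553, minus strand: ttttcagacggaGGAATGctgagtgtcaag
CCN2, chr6:131951459-131951488, minus strand: ggaaggtggggaGGAATGcgaGGAATGtcc
ANKRD1, chr10:90921290-90921319, minus strand: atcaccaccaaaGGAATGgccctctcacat
LATS2, chr13:21061560-21061589, minus strand: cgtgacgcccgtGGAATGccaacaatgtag
PTPN14, chr1:214551785-214551814, minus strand: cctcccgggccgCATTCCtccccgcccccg
Of the 14 target genes of the list that had a promoter in this table, 5 held the motif, 4 of them, ANKRD1 included, among the 9 that were called higher. It was present in 14% of 27305 RefSeq promoters and in 10.8% of the 9894 tested genes with a promoter. These are matches of letters in a short window, not mapped binding sites. The list was made of YAP/TEAD targets, so its share beside all genes does not bear on the effect of the KD. Within the list the share was 35.7% over all members and 44.4% among those called higher.

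NF-kB is a family of transcription factors that is activated by inflammatory signals and induces chemokines and its own inhibitors. Of 24 genes tested, 13 rose and 1 fell, the list median being 0.57 on the log2 scale. The rises numbered 9 without siHOXB-AS3 replicate 1 and 6 without replicate 2. Of 6 chemokines 5 were called higher, and their median was 1.26. CXCL3 went from 2.68 and 2.71 FPKM to 6.39 and 10.7 FPKM, beside CXCL1 above, and the level in replicate 2 was again the higher of the KD pair. Among 11 regulators and feedback genes, 5 rose and 0 fell. NFKB2, which encodes the precursor of the p52 subunit, went from 4.49 and 5.36 FPKM to 10.6 and 9.46 FPKM, a 2.11-fold rise, and BIRC3, a feedback target, is described above. The remaining targets were mixed, with a median of -0.25. LCN2, an abundant iron-sequestering protein, had a log2 fold change of -0.44, and its call was lost when siHOXB-AS3 replicate 2, siNT replicate 1 or siNT replicate 2 was left out.

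Promoter windows of the chemokines and of BIRC3 are shown for the same reason. Capitals mark matches to the NF-kB consensus motif on either strand, where overlapping matches are joined.
CXCL1, chr4:73869304-73869333, plus strand: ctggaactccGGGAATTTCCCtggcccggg
CXCL2, chr4:74099254-74099283, minus strand: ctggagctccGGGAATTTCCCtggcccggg
CXCL3, chr4:74038749-74038778, minus strand: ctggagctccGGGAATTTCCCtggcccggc
BIRC3, chr11:102317275-102317304, plus strand: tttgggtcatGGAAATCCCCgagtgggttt
The motif was found in 10 of 20 promoters of the list, in 6 of the 10 called higher, and in 12.7% of the tested genes with a promoter and 10.8% of all RefSeq promoters of that length. The chemokine windows are nearly identical to each other, so these genes are not independent examples. The list was made of NF-kB targets and regulators, so its share beside all genes does not bear on the effect of the KD. CFB, LCN2, NFKB1 and NFKBIA held the motif and were not called higher.

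The Wnt, epidermal growth factor (EGF) and bone morphogenetic protein (BMP) pathways had members moving in both directions. Wnt signals stabilise beta-catenin, which with TCF factors maintains stem cells of the crypt. Of 19 Wnt target genes tested, 8 fell and 3 rose, the list median being -0.40 on the log2 scale. AXIN2, a feedback inhibitor that is widely used as a readout of the pathway, went from 3.73 and 2.96 FPKM to 1.73 and 1.53 FPKM, and TCF7, a TCF factor, from 17.2 and 19 FPKM to 9.72 and 11.6 FPKM. RNF43, a ubiquitin ligase that removes Wnt receptors, and SOX9, a transcription factor of crypt cells, fell by 0.60 and 0.52 on the log2 scale. The 3 that rose included the largest changes of the list. DKK1, a secreted Wnt inhibitor, went from 26.5 and 27.7 FPKM to 61.1 and 84.9 FPKM, and MYC, a growth regulator that also answers to other pathways, from 105 and 97.6 FPKM to 191 and 226 FPKM (log2 fold change 1.09 ± 0.0972 SE).

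EGF receptors transmit growth signals from ligands such as amphiregulin to the ERK kinases. Of 15 receptors, ligands and feedback genes tested, 4 rose and 2 fell. AREG, which encodes amphiregulin, was at 335 and 367 FPKM in controls and at 636 and 788 FPKM after KD, a 2.10-fold rise, and EREG, which encodes epiregulin, rose 1.75-fold. ERBB3, a receptor that signals in pairs with other family members, went from 35 and 34.3 FPKM to 13.1 and 12.9 FPKM (log2 fold change -1.41 ± 0.0952 SE, adjusted p = 2.61e-09 by edgeR). Its replicates were nearly equal in each group. EGFR itself was at 42.4 and 40.8 FPKM against 49.2 and 51 FPKM (adjusted p = 0.0135), a call that was lost without siHOXB-AS3 replicate 1 or 2, with adjusted p-values up to 0.43 over the alternatives. Targets and feedback genes of the ERK pathway had no common direction, with 6 of 22 higher, 5 lower and a median of 0.014 whose sign changed with the scaling. EPHA2, a receptor tyrosine kinase, rose 2.04-fold and DUSP5, a phosphatase that inactivates ERK, 2.02-fold.

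BMP2 stood out within its pathway. Of 22 BMP genes tested, 3 rose and 4 fell, with a median of -0.14. ID1, a direct target of BMP signals, went from 83.5 and 104 FPKM to 52.1 and 50.5 FPKM, and BMP4, another ligand, from 109 and 129 FPKM to 85.9 and 77.6 FPKM. TWSG1, an extracellular modulator of BMP ligands, fell 2.09-fold. The ligand BMP2 and the target ID1 thus changed in opposite directions. ID1 did not stand for the targets as a set, since of 5 tested 1 rose and 1 fell, with a median of 0.0043. GDF15, a stress-induced member of the wider ligand family, rose from 276 and 337 FPKM to 441 and 531 FPKM. Of 20 genes of the related TGF-beta pathway, 2 rose and 5 fell (median -0.10), with SKI, a repressor of its SMAD factors, falling 1.61-fold and CDKN2B, a cell cycle inhibitor induced by the pathway, rising 1.52-fold.

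Genes that make and process ribosomes had small positive changes, of which fewer passed the test than did not. Of 145 rRNA processing and ribosome assembly genes tested, 61 rose and 4 fell, the list median being 0.30 on the log2 scale, and 128 of the 145 had a value above 0. The rises numbered 35 without siHOXB-AS3 replicate 1 and 17 without replicate 2. DDX47, an RNA helicase of pre-rRNA processing, went from 78.6 and 74.2 FPKM to 136 and 141 FPKM (log2 fold change 0.90 ± 0.0913 SE, adjusted p = 4.39e-07 by edgeR). WDR12 and RRP12, assembly factors of the large and small subunit, rose 1.81-fold and 1.78-fold. In the division by role, 24 of 53 small-subunit factors and 22 of 52 large-subunit factors rose, and 0 of either fell. BUD23, a methyltransferase of 18S rRNA, and RRN3, an initiation factor of RNA polymerase I, were among the 4 that fell, by 0.56 and 0.52 on the log2 scale.

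The snoRNA host genes are transcribed from promoters like those of ribosomal protein genes and release snoRNAs, guides of rRNA modification, from their introns. Of 15 tested, 8 rose and 0 fell (4 rose without siHOXB-AS3 replicate 1 or 2). SNHG16 went from 168 and 165 FPKM to 269 and 267 FPKM, SNHG15 from 56.5 and 61.4 FPKM to 105 and 110 FPKM, and SNHG8 from 172 and 201 FPKM to 297 and 279 FPKM. In all of them the groups lay far apart compared with their replicates. Cytosolic ribosomal protein genes moved less, with 15 of 74 higher and 0 lower, a median of 0.19 and 68 of 74 above 0. Their calls depended on the library, with 6 without siHOXB-AS3 replicate 1, 0 without replicate 2 and 34 without siNT replicate 2. Mitochondrial ribosomal proteins had 14 of 75 higher and 2 lower, which became 2 and 1 higher without siHOXB-AS3 replicate 1 or 2 and 24 higher without siNT replicate 2. MRPS34 ran against that list, from 45.1 and 53.4 FPKM to 17.8 and 16.7 FPKM.

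Proteasome subunits had 14 of 36 members higher and 2 lower (median 0.20), with 7 and 4 higher without siHOXB-AS3 replicate 1 or 2. PSMB3, a core subunit, and PSMD14, the deubiquitinase of the lid, rose 1.37-fold and 1.42-fold, and PSMD5, an assembly chaperone, fell 1.47-fold. Of 13 subunits of the lysosomal proton pump 6 rose and 0 fell, and of 59 lysosome and endosome genes overall 17 rose and 4 fell. PPT1, a lysosomal thioesterase, rose from 89.5 and 91.7 FPKM to 159 and 176 FPKM, and NPC1, which exports cholesterol from lysosomes, rose 1.55-fold. LAMP1, an abundant glycoprotein of the lysosomal membrane, fell from 218 and 221 FPKM to 151 and 146 FPKM, the same direction as the endosomal protein LITAF.

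Goblet cell genes were called lower more often than higher. Of 19 mucin, trefoil factor and goblet genes tested, 10 fell and 2 rose, the list median being -0.84 on the log2 scale. The falls numbered 9 without siHOXB-AS3 replicate 1 and 5 without replicate 2, where 6.75% and 5.15% of all genes were called lower. TFF3, a trefoil peptide secreted with mucin, went from 5.96 and 8.67 FPKM to 3.07 and 2.54 FPKM. CREB3L1, a transcription factor of secretory cells, went from 31.8 and 28.8 FPKM to 14.8 and 12.4 FPKM (log2 fold change -1.11 ± 0.119 SE). The exceptions were membrane-bound mucins. MUC13 rose from 55.8 and 56.6 FPKM to 73.2 and 77.2 FPKM, and MUC3A rose 1.62-fold, with the reservation that MUC3A has a close paralog that can share its reads.

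Of 15 ion transport genes tested, 11 fell and 0 rose, with a median of -0.57, and 6 fell without siHOXB-AS3 replicate 1 or 2. KCNE3, a potassium channel subunit that supports chloride secretion, went from 21.4 and 19.5 FPKM to 7.12 and 5.64 FPKM, a 3.10-fold fall (adjusted p = 2.61e-08 by edgeR). ANO1, a calcium-activated chloride channel, went from 31.5 and 33.9 FPKM to 17.2 and 18.1 FPKM. SLC12A2, the cotransporter that loads chloride at the basal membrane, fell 1.64-fold, and ATP1B1, a sodium pump subunit, fell 1.49-fold. The members named here share a role in transport of chloride and of the cations that accompany it. Of 14 enterocyte and brush border genes tested, 6 fell and 0 rose (median -0.32), with 6 and 4 lower without siHOXB-AS3 replicate 1 or 2. PHGR1, a small protein of the gut epithelium, went from 58.7 and 74.6 FPKM to 28.6 and 26.4 FPKM, CDHR5, a protocadherin that links microvilli, fell 1.82-fold and DPP4, a brush border peptidase, 1.64-fold. As many as 23 of the 38 enterocyte genes listed had too few counts to test.

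Transcription factors of intestinal lineages were divided. VDR, the vitamin D receptor, fell from 2.05 and 2.37 FPKM to 1 and 0.50 FPKM, and HNF4G, a nuclear receptor of enterocytes, from 18.2 and 14 FPKM to 10.8 and 10.9 FPKM. HES1, a Notch target that favours absorptive over secretory fate, rose from 30.3 and 27 FPKM to 44.1 and 49.4 FPKM, and GATA6, a factor of endodermal tissues, rose 1.67-fold. In all 4 of 17 fell and 2 rose. Polycomb and Trithorax genes, which encode chromatin regulators of the HOX clusters, had 4 of 50 higher and 2 lower, below the background share. Of 8 cofactors that bind DNA together with HOX proteins, 2 fell and 0 rose, so 25% were called, near the 23.3% of all genes. PBX2, 1 of those that fell, went from 15.1 and 14.6 FPKM to 9 and 8.56 FPKM. The median of these cofactors, -0.18, became 0.017 without siNT replicate 1.

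**Figure D4:**
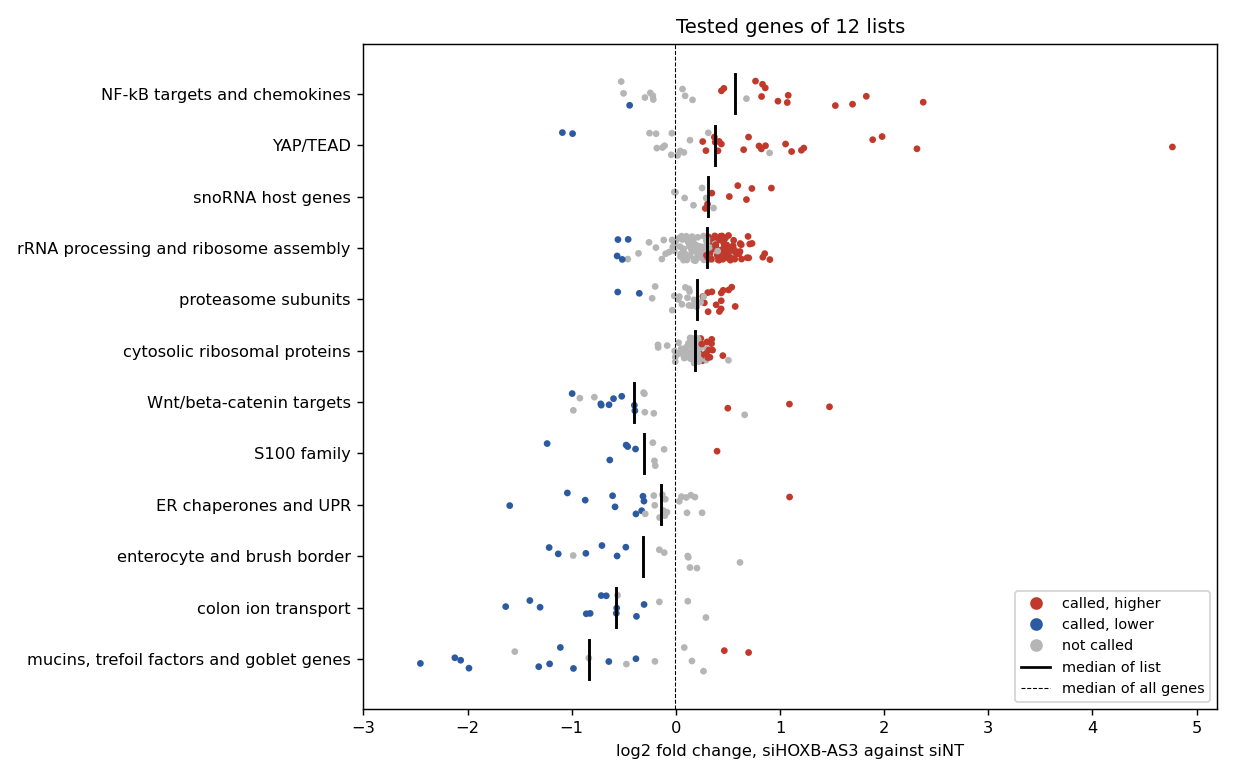
Log2 fold change, siHOXB-AS3 against siNT, of each tested gene of 12 lists, with the list median as a bar and the median of all genes as a dashed line. Red and blue points were called higher and lower and grey points were not called; the median is 0.57 for NF-kB targets and chemokines and -0.84 for mucins, trefoil factors and goblet genes.

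Leading adhesion genes of epithelial surfaces fell. CEACAM5, the carcinoembryonic antigen, was at 95.8 and 92.8 FPKM in controls and at 29.7 and 28.1 FPKM after KD (log2 fold change -1.64 ± 0.0951 SE, adjusted p = 3.15e-10 by edgeR). CEACAM6, its close relative, was at 83.8 and 83.1 FPKM against 29.7 and 28.9 FPKM, a 2.76-fold fall. Their sequences are similar, so some reads may have been assigned to the wrong member, although both moved by like amounts. Of 6 CEACAM genes tested 3 fell and 1, CEACAM18, rose, at an adjusted p of 0.0399. EPCAM, an adhesion molecule of epithelial cells, went from 289 and 278 FPKM to 159 and 153 FPKM, and CDH1, the cadherin of adherens junctions, from 183 and 175 FPKM to 130 and 122 FPKM. Of the 16 epithelial genes of their list that were tested, 4 fell and 2 rose, with a median of -0.14 on the log2 scale. Of the mesenchymal genes listed beside them, 7 of 11 had too few counts to test. Of the other 4, 0 rose and 1 fell.

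Integrins anchor cells to collagens and laminins. Of 10 integrin genes tested 4 fell and 1 rose, and of 7 laminin and associated genes 2 rose and 1 fell, beside 12.1% of all genes that fell and 11.2% that rose. ITGA1 went from 6.21 and 6 FPKM to 1.97 and 1.88 FPKM, a 3.07-fold fall, ITGA2 fell 2.08-fold and ITGA3 fell 1.73-fold. The laminin chains LAMC1 and LAMB1, which form part of their matrix ligands, rose 1.53-fold and 1.47-fold. The members called the other way were ITGB8, an integrin beta subunit (log2 fold change 0.59, a call lost without siHOXB-AS3 replicate 2), and PLEC, the cytoskeletal linker plectin (-0.66). Tight junction genes moved both ways, with OCLN, which encodes occludin, rising from 18.7 and 15.2 FPKM to 26.6 and 28.8 FPKM, CLDN4, a claudin, rising 1.56-fold and PARD6B, a polarity protein, rising 2.30-fold, beside 4 of 25 members that fell. Among keratins 3 of 11 rose and 1 fell. KRT13 rose 2.55-fold, and KRT19, a keratin of simple epithelia, went from 182 and 195 FPKM to 132 and 107 FPKM.

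Of 10 S100 genes, which encode small calcium-binding proteins, 5 fell and 1 rose, with a median of -0.30. S100A4 went from 1120 and 1100 FPKM to 739 and 638 FPKM, and S100A2 fell 2.36-fold. S100A6 was at 3680 and 4770 FPKM against 3180 and 2760 FPKM and lost its call without siHOXB-AS3 replicate 2 (log2 fold change -0.37, adjusted p = 0.0681). LGALS4, an abundant galectin of the gut, lost its call in the same way (-0.32, adjusted p = 0.149).

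Endoplasmic reticulum genes were lower where a member was called, except 1. Of 26 chaperone and unfolded protein response genes 9 fell and 1 rose, with a median of -0.14, and the 12 sensors and effectors held 6 of the falls. XBP1, the transcription factor that expands secretory capacity, went from 410 and 407 FPKM to 272 and 255 FPKM, CALR, a calcium-binding chaperone, from 232 and 260 FPKM to 118 and 142 FPKM, and SEC24D, a coat protein of vesicles that leave the endoplasmic reticulum, from 10.7 and 9.63 FPKM to 5.16 and 4.4 FPKM. SDF2L1, a chaperone cofactor, rose 2.13-fold. Secreted products of the goblet genes pass through this compartment, and a relation between the lists was not tested.

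Targets of NRF2, the factor that answers oxidative stress, had 8 of 27 members lower and 4 higher. AKR1C2, an aldo-keto reductase, went from 36.4 and 28.9 FPKM to 16.6 and 17.6 FPKM, with close paralogs that can share reads, ABCC3, an exporter of conjugated compounds, fell 1.74-fold, and NQO1, a quinone reductase, fell from 513 and 561 FPKM to 378 and 329 FPKM. HMOX1, which degrades haem, rose 1.81-fold. Of 41 interferon-stimulated genes 8 fell and 2 rose (median -0.15), and the falls numbered 3 and 1 without siHOXB-AS3 replicate 1 or 2. In either direction 24.4% of the interferon-stimulated genes were called, near the 23.3% of all genes. Both groups had been transfected with siRNA.

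The lists of the ATF4 response, glycolysis, cholesterol and fatty acid synthesis and heat shock chaperones each had between 35.9% and 36.8% of members called, beside 23.3% of all genes. Of 49 ATF4 response and tRNA synthetase genes 14 rose and 4 fell, which became 10 and 5 rises without siHOXB-AS3 replicate 1 or 2. ATF3, a stress-induced transcription factor, rose 1.86-fold and SLC6A9, a glycine transporter, 1.95-fold. Of 22 glycolysis genes 7 rose and 1 fell, with ALDOC, an aldolase, rising 2.35-fold and PFKM, a phosphofructokinase, rising 1.78-fold. Cholesterol and fatty acid synthesis had 9 of 39 higher and 5 lower. INSIG1, the sensor that restrains the pathway, fell 1.82-fold. Hypoxia targets were divided, with 2 of 22 higher and 4 lower, and CA9, a carbonic anhydrase induced by low oxygen, fell 1.83-fold beside CA12. In the respiratory chain 9 of 74 genes were higher and 4 lower, so 17.6% were called, below the 23.3% of all genes. Heat shock chaperones had 4 of 19 higher and 3 lower, and metallothioneins and zinc transport 3 of 12 higher and 1 lower. These 3 lists had 1 member beyond 2-fold, the metallothionein MT1G. It was at 3.9 and 5.47 FPKM against 11.4 and 7.64 FPKM, and its call was lost with DESeq2 and without siHOXB-AS3 replicate 1 or siNT replicate 1.

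Of 49 DNA replication genes 7 rose and 0 fell, among them RRM2, a subunit of ribonucleotide reductase, which went from 66.5 and 66 FPKM to 89 and 91.9 FPKM, and the rises numbered 4 and 2 without siHOXB-AS3 replicate 1 or 2. Of 49 mitosis genes 2 rose and 7 fell, with a median of -0.0076. The replication rises were 14.3% of their list, beside 11.2% of all genes. The mitosis falls were 14.3%, beside 12.1%, so both lie near the background. In either direction 14.3% of replication genes and 18.4% of mitosis genes were called, below the 23.3% of all genes. MKI67, which encodes the proliferation marker Ki-67, went from 111 and 104 FPKM to 64.8 and 62.7 FPKM (log2 fold change -0.71 ± 0.0854 SE), larger than that of any other mitosis gene called. Among 27 p53 targets 5 rose and 3 fell, 18.5% and 11.1%, beside 11.2% and 12.1% of all genes. MDM2, the ubiquitin ligase of p53, fell from 20.7 and 17.8 FPKM to 11 and 11.9 FPKM, and AEN, a nuclease induced by p53, rose 1.70-fold. Of 13 BCL2 family regulators of apoptosis 1 rose and 2 fell, so 23.1% were called, the same as the background of 23.3%.

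Of 15 genes of the RNA interference machinery, which loads and executes siRNAs, 4 rose and 1 fell (26.7% and 6.67%, beside 11.2% and 12.1% of all genes), the fall being in TNRC6B, a scaffold of silencing complexes, from 2.38 and 2.24 FPKM to 1.39 and 1.44 FPKM. Of 37 SR and hnRNP splicing regulators 8 rose and 2 fell, with HNRNPA2B1 rising 1.52-fold. Of 39 translation initiation factors 9 rose and 3 fell, and the rises numbered 5 and 0 without siHOXB-AS3 replicate 1 or 2. The list of actins, capping and severing genes and targets of the actin-sensing SRF and MRTF factors had 7 of 43 members higher and 6 lower. Of its 25 targets tested, 5 rose and 3 fell. MYL9 and CFL2, an actin-severing cofilin that rose 2.40-fold, were thus not representative of the whole list, whose median was -0.016. Class I antigen presentation genes had 1 of 20 higher and 3 lower, so 20% were called, below the 23.3% of all genes. In the region of MIR31HG, IFNE, an interferon gene nearby, went from 3.77 and 2.49 FPKM to 1.25 and 1.18 FPKM, and 2 of the 9 genes tested there rose.

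Matches to the siRNA seeds shown above were counted in the longest annotated 3′ untranslated region of each gene (GENCODE v29, available for 10888 tested genes, sense strand only). A match to at least 1 of the 3 seeds was present in 54.8% of 1362 genes called lower, 42.8% of 1312 called higher and 45.6% of all. For duplex C, site AAGGGAA, the shares were 32.7%, 17.9% and 22.5%, and for duplex A, site GACAAAG, they were 21.4%, 11.4% and 14.1%. For duplex B, site GAAAGAA, they were 29.1%, 28% and 27.8%. The regions were also longer in the genes called lower, with a median of 2010 bases against 1630 in those called higher and 1650 in all, and a longer region holds more matches by its length. LITAF had 3 matches, CA12 2 and TSPAN8, SPDEF and LFNG 1 each, and MUC5AC and FGF19 had 0. Among risers MYL9 had 3, BIRC3 2 and CAV1 2. The part of seed pairing in these changes was not tested.

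The siHOXA-AS3 libraries show the level of these genes under another siRNA pool. In a model of all 6 libraries, 204 of 13034 genes (1.57%) differed between the knockdowns, 82 higher and 122 lower after HOXB-AS3 KD. Among them were 23 of the 30 leading genes and 40 of the named genes outside the HOX clusters. These genes were chosen on the same siHOXB-AS3 libraries, so neither their number nor their direction here is independent of the comparison with siNT. CCN2 was at 9.48 and 8.09 FPKM in the siHOXA-AS3 libraries, near its control level, with a difference of 2.41 on the log2 scale (adjusted p = 0.0173 by edgeR). VGLL1 was at 6.13 and 4.91 FPKM there, below its control level, so the difference between the knockdowns was larger, 3.49 (adjusted p = 0.00598). MIR31HG was at 12.1 and 12.7 FPKM, CEACAM5 at 95.7 and 80.1 FPKM and ITGA2 at 12.8 and 14.1 FPKM, each above the HOXB-AS3 KD (adjusted p = 0.0162, 0.0173 and 0.0173). LITAF was at 43 and 38 FPKM, between the other groups. DKK1, at 55.5 and 75 FPKM, was near its level after HOXB-AS3 KD, and a difference was not detectable (adjusted p = 0.707). The number of genes that differ between the knockdowns was 0 without siHOXB-AS3 replicate 1 or 2, 5027 without siHOXA-AS3 replicate 1 and 4842 without replicate 2.

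Genes next to the HOXB cluster on chromosome 17 were examined as neighbours of the targeted locus. Of the 6 nearest tested genes on each side, 12 in all, 2 rose and 1 fell. Among all genes 11.2% rose and 12.1% fell, so these counts lie near the background. ATP5MC1, a subunit of ATP synthase, rose by 0.41 and PHB1, a prohibitin, by 0.42 on the log2 scale. CBX1, a heterochromatin protein, fell by 0.39, and each change was smaller than that of HOXB5. The call of ATP5MC1 was lost without siHOXB-AS3 replicate 1, that of PHB1 without replicate 2 and that of CBX1 without either. The identity of the cells was checked with markers. Of 11 colon epithelial markers 9 were at 1 FPKM or more in all 4 libraries, while CDX2 (0.10 to 0.34 FPKM) and GPA33 (0.05 to 0.26 FPKM) were below it. The summed level was 4500 to 4830 FPKM with siNT and 4200 to 4220 FPKM after KD, and EPCAM, CDH1, LGALS4 and CEACAM5 were the markers called lower. Of 24 markers of other cell types 21 were below 1 FPKM in all libraries, and COL1A2, COL3A1, DCN, PDGFRB, THY1, ALB and APOA2 were at 0. LYZ, which HT-29 cells expressed at 718 to 959 FPKM, made up most of that list's sum (863 to 976 FPKM in siNT and 731 to 784 FPKM in KD). In bulk RNA, fewer cells of a kind and less RNA per cell cannot be told apart, which applies to the goblet and enterocyte genes above.

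Most leading genes kept their call when libraries or settings were varied, apart from the model of all 6 libraries. They were picked as the largest called changes in the same 4 libraries, so keeping the call in refits of these was favoured beforehand. Of the 30 leading genes, 24 lost their call only in that model, 5 in none of the 16 alternatives and 1, LINC02998, elsewhere too. No named gene reversed its direction in any alternative. The rule for naming genes outside the HOX clusters required groups that did not overlap, so reversals were nearly excluded beforehand. List counts dropped, as did those of all genes, when a siHOXB-AS3 library was left out. Without replicate 1 and without replicate 2, respectively, the rises in lysosome and endosome genes numbered 8 and 8, in glycolysis 6 and 4, in cholesterol and fatty acid synthesis 7 and 2 and in splicing regulators 4 and 2. The falls numbered 7 and 5 in endoplasmic reticulum genes, 4 and 5 in NRF2 targets, 4 and 3 in the S100 family, 3 and 2 in the TGF-beta pathway and 2 and 2 in mitosis genes.

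**Figure D5:**
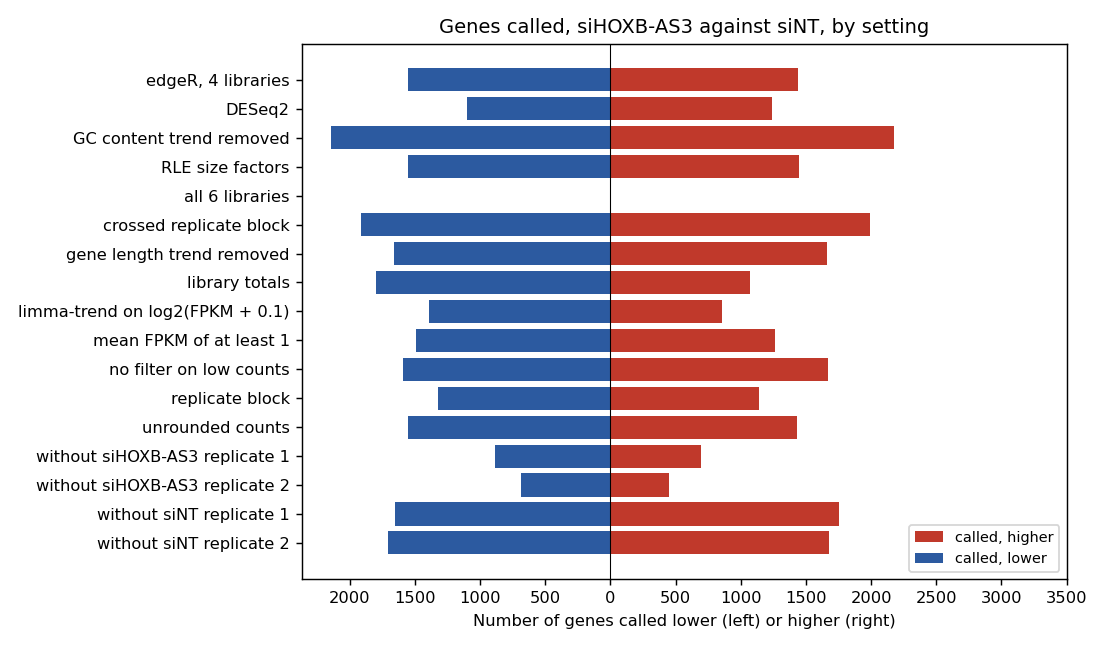
Number of genes called higher (red, to the right) and lower (blue, to the left) in the siHOXB-AS3 libraries under each setting. The 4-library model gives 1441 and 1554, the model of all 6 libraries gives 4 and 4, and leaving out siHOXB-AS3 replicate 2 gives 449 and 682.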

How the data were processed

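RNA-seq was made from polyadenylated RNA with a Lexogen SENSE mRNA kit. The submitters' processing notes name RSEM and hg19, and the methods name a RefSeq annotation. For the RSEM version and the use of strand, a statement was not found in the sources used here. The deposited expected counts are RSEM's estimates of fragments per gene, not normalized. FPKM, which the authors scaled by transcript length and library size, is printed here as the level. The deposited TPM values, scaled to a fixed total per library, were not used. Files had 27434 rows. Rows that join several genes (627) took 6.44% to 6.62% and rows without a symbol took 0.62% to 0.632% of the counts in these libraries.

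Expected counts of the 4 libraries were rounded, passed through filterByExpr at a minimum count of 10, scaled by TMM factors and fitted in edgeR 4.0.16 (quasi-likelihood, robust) in R 4.3.3, and calls were made at a Benjamini-Hochberg adjusted p below 0.05. In a simulation of this comparison (12830 genes) all of 200 genes set to a 4-fold change, 100%, were recovered, with 8 false calls. Its counts were drawn with the spread fitted to these 4 libraries. It did not test the recovery of smaller changes, and the median size of a called change was 0.549 on the log2 scale. No pair of libraries was identical. The knockdowns were compared in a fit of all 6 libraries. Genes named were from calls whose mean reached 1 FPKM and whose groups did not overlap, the 15 largest rises and 15 largest falls on the log2 scale, the 5 with the largest rise and the 5 with the largest fall in FPKM, up to 3 and up to 2 called members per list in either direction, and HOXB-AS3 with HOXB5 to HOXB7. Other names were chosen after their values were seen. The comparison, the lists and the genes were chosen with earlier results of these data known. Sequences came from the study's siRNA table, GENCODE v29 and RefSeq promoters of GRCh38.p14, whose coordinates are not those of hg19. Alternatives were DESeq2 1.42.0, limma 3.58.1 (trend, log2(FPKM + 0.1)), other scalings and filters, length and GC trends, the replicate block and each library left out.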

Additional observations from a re-analysis of the deposited data

How the results depend on the processing

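The 2995 genes called after HOXB-AS3 KD became 8 with all 6 libraries in the fit, and ranged from 1131 to 3408 when each library was left out in turn, with the lowest counts without a siHOXB-AS3 library (1576 and 1131). A group left with 1 library was taken to share the spread of the other. Across the other alternatives the count ranged from 2245 with limma on log2(FPKM + 0.1) to 4322 with the GC content trend removed, chosen because GC content correlated with the fold change (Spearman rho -0.139 across genes). DESeq2 called 1243 genes higher and 1103 lower. The 204 genes that differ between the knockdowns became 767 with DESeq2, 10 with the replicate block and 2 with only the knockdown libraries in the fit, and ranged from 0 to 5027 when libraries were left out. Replicate numbers did not pair the samples by the labels, and the replicate differences of the siNT and siHOXB-AS3 pairs correlated at -0.139. With the replicate block 2464 genes were called (1141 higher, 1323 lower), and with the crossed replicate block, an alternative chosen after seeing the data, 3906. Of 3495 values of named genes under an alternative, 3082 kept their call, 413 lost it and 0 reversed. The naming rule required calls and groups that did not overlap in the same 4 libraries. It thus favoured kept calls and left little room for a reversal. 212 of the 219 named genes lost their call with all 6 libraries, 73 without siHOXB-AS3 replicate 2 and 47 without replicate 1. The median of 10 of the 46 lists changed sign under some alternative. These were ERK output and feedback, heat shock chaperones, hypoxia response, metallothioneins, mitosis, the BCL2 family, SRF/MRTF targets, claudins, HOX cofactors and Polycomb and Trithorax. The cause was not tested. There were 2 libraries per group, and the number of calls moved with the library left out.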
